A study of Mus musculus with 6 samples.

Results

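The DNA replication machinery was taken as the genes that carry the KEGG pathway term DNA replication in the deposited count table and have a summed count of at least 60 over the 6 libraries. There were 35 such genes of 17191 in the table, 0 rows with the term fell under the count minimum, and all 35 passed the filter on low counts before testing, which kept 12721 genes. RNA was sequenced from cells of tumours of CT26, a colorectal carcinoma line of mouse, growing under the skin of female BALB/c mice of 6 to 8 weeks. The mice received oral TP-18, which is a code name, in daily doses of 50 mg/kg over 3 weeks (3 libraries), or vehicle over the same time (3 libraries). Treatment began at tumour volumes of 100 to 200 mm3, and all mice of both groups carried the same tumour line. The labels describe the cells in 3 ways, as CD11b+F4/80+CD206+ macrophages from flow sorting, as CD11b+ cells from magnetic beads and as the CT26 line. Whether each library is from its own mouse is not stated, and the spread behind the p-values may in part be technical.

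Each cell copies its genome once per division. The MCM helicase unwinds DNA at licensed origins, DNA polymerase alpha with primase lays down short primers, polymerase epsilon extends the leading strand and polymerase delta the lagging strand. Replication factor C loads the ring-shaped clamp PCNA that tethers the polymerases, replication protein A covers single-stranded DNA, and nucleases with DNA ligase I join the Okazaki fragments of the lagging strand. Most of these genes are transcribed more in cells that have entered the cell cycle, under factors of the E2F family. Tumour macrophages can divide locally, but carcinoma cells and other stromal cells also divide, and a bulk library mixes all of them.

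Total counts ran from 16371128 to 17597645 per library. Itgam (CD11b) ran from 815.5 to 1019 CPM in TP-18 and from 803 to 1319 CPM in vehicle libraries, where CPM is the count relative to the library's TMM-scaled total. Mrc1 (CD206) ran from 629.6 to 898 CPM in TP-18 and from 721 to 1452 CPM in vehicle libraries, and Adgre1 (F4/80) from 108 to 256 CPM in TP-18 and from 99.9 to 295 CPM in vehicle libraries. Of the carcinoma markers, Epcam and Krt19 lay at or near 0 (at most 1.07 and 0.0629 CPM), Krt8 and Krt18 at 0.273 to 6.98 CPM and Krt20 at 239 to 522 CPM. Cdh1, on the same list, had 2.16, 2.28 and 2.29 CPM in TP-18 1, 2 and 3, against 1.41, 0.315 and 1.06 CPM in vehicle 1, 2 and 3, without overlap (log2 fold change 1.26 ± 0.54, edgeR adjusted p = 0.304). Only Cdh1 of the 4 carcinoma markers tested lay above 0. The log2 fold change was -0.48 for Krt8, -0.19 for Krt18 and -0.07 for Krt20.

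The comparison asked how the replication genes differed between cells of TP-18 and vehicle tumours. None of the 35 genes passed the edgeR quasi-likelihood test at an adjusted p under 0.05 (0 higher and 0 lower), where 0.110% of all tested genes were called, 0.0236% higher and 0.0865% lower. These were 3 higher and 11 lower, and with library totals as scaling 3 higher and 1 lower. At an unadjusted p under 0.05, 8 of the 35 were higher and 0 lower, against 7.56% and 8.70% of all tested genes. DESeq2 called 1 of them higher, Rfc1, the large subunit of the clamp loader, and 0 lower, against 1.47% and 2.98% of all tested genes. Log2 fold changes of TP-18 over vehicle were above 0 in 32 of 35 genes, with a median of 0.41, where 52.6% of all tested genes lay above 0 and their median was 0.02. The median was 0.26 without TP-18 3 and 0.28 without vehicle 3, and it was 0.59 with library totals as scaling, which moved the median of all genes to 0.20; its distance from that median was 0.39 in both scalings. The 8 genes higher at an unadjusted p under 0.05 became 1 without TP-18 3 (5.77% of all tested genes), 18 without TP-18 2 (6.77%) and 2 without vehicle 2 (6.01%), vehicle 3 (5.24%) or TP-18 1 (3.78%). They were 4 with voom (7.77%) and 16 with library totals as scaling, under which the share of all tested genes was 17.3%. With edgeR 0 were called with any library left out, where 0.0616% of all tested genes were called without vehicle 1, 0.00771% without vehicle 2 and 0.00% without each of the other 4.

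**Figure D1:**
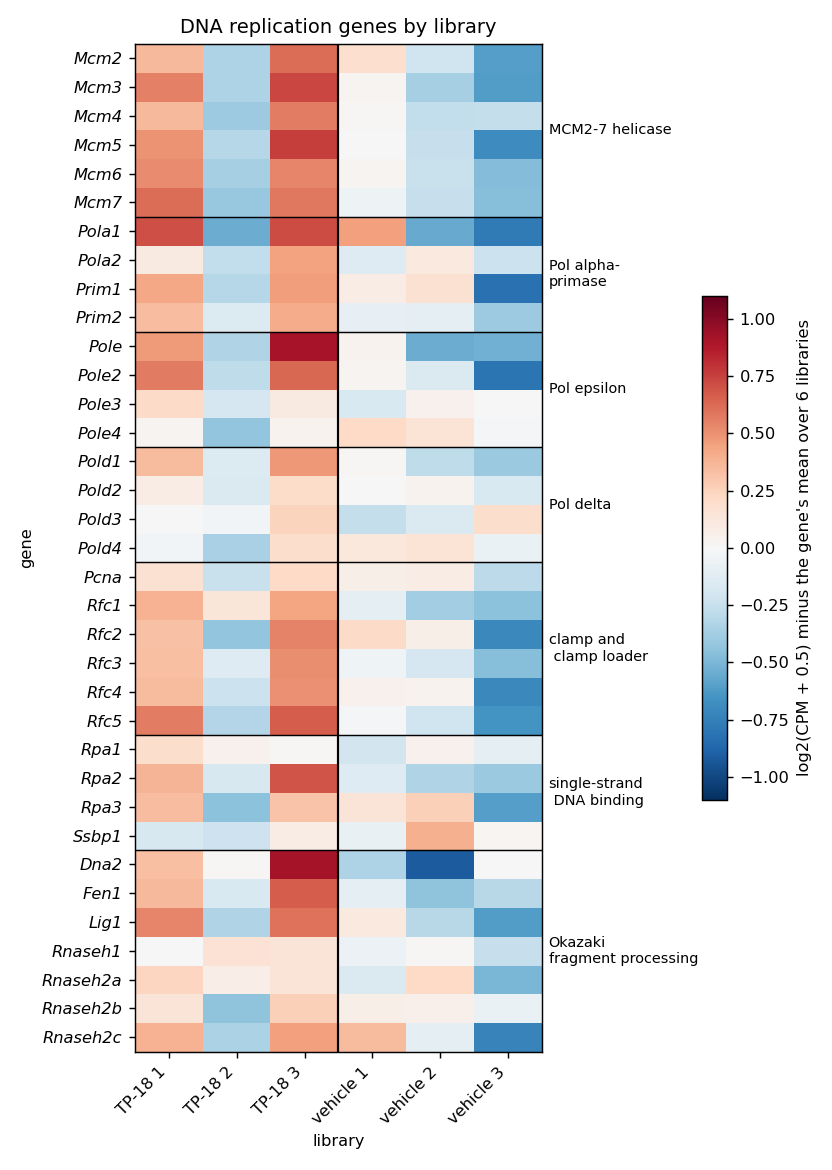
Heat map of the 35 replication genes (rows, grouped by role) in 6 libraries (columns); colour is log2(CPM + 0.5) minus the gene's mean over the libraries. TP-18 1 and TP-18 3 were the 2 highest libraries in 27 of 35 genes, and TP-18 2 was the lowest TP-18 library in 33.

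In the heat map of centred levels, TP-18 1 and TP-18 3 were the 2 highest of the 6 libraries in 27 of 35 genes, against 12.2% of all tested genes. TP-18 2 was the lowest of the TP-18 libraries in 33 of 35 genes (37.8% of all tested genes) and lay within the range of the vehicle libraries in 25 (47.6%). Vehicle 3 was the lowest of all libraries in 23 genes, against 23.1% of all tested genes. With library totals as scaling these counts were 29, 33, 23 and 25, against 18.6%, 37.1%, 42.6% and 31.5% of all tested genes. Only Rfc1 and Dna2 had all 3 TP-18 libraries above all 3 vehicle libraries (2 of 35, against 11.6% of all tested genes). Without TP-18 2 there were 27 such genes, against 19.5% of all tested genes, and without vehicle 1 there were 9, against 20.3%. There were 5 without vehicle 2 (16.5%), 3 without vehicle 3 (16.4%), 3 without TP-18 1 (14.3%) and 2 without TP-18 3 (17.1%). With library totals as scaling there were 9 of 35 such genes, near the 23.5% of all tested genes. The summed level of the 35 genes was 2275, 1507 and 2454 CPM in TP-18 1, 2 and 3, against 1811, 1654 and 1371 CPM in vehicle 1, 2 and 3, and the groups overlapped.

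In the MCM helicase, all 6 subunits had TP-18 1 and TP-18 3 as their highest libraries. Mcm2 had 101, 62.1 and 121 CPM in TP-18 1, 2 and 3, against 89.7, 67.5 and 51.7 CPM in vehicle 1, 2 and 3. Mcm3 had 126, 67.7 and 143 CPM in TP-18 1, 2 and 3, against 87.5, 66.6 and 56.0 CPM in vehicle 1, 2 and 3. In both genes TP-18 1 and TP-18 3 lay above every vehicle library while TP-18 2 lay among them. The log2 fold changes of the 6 subunits ran from 0.40 (Mcm4) to 0.68 (Mcm3), and all 6 were above 0 under every alternative setting run. Mcm3 had a log2 fold change of 0.68 ± 0.29 (SE; edgeR adjusted p = 0.305) and Mcm2 one of 0.44 ± 0.28 (SE; edgeR adjusted p = 0.469). The subunits form a ring in equal parts, and their mean levels per length lay between 19.9 FPKM (Mcm4) and 41.9 FPKM (Mcm7). The ratio of Mcm2 to Mcm7 in FPKM was 0.497, 0.627 and 0.609 in TP-18 1, 2 and 3, against 0.703, 0.606 and 0.538 in vehicle 1, 2 and 3, and the groups overlapped.

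The promoters of the replication genes are shown because E2F sites are a known feature of such genes. RefSeq windows of 300 bases on GRCm38.p6, with 250 bases before the start site and 50 after it, were on hand for 29 of the 35 genes, some with more than 1 start (35 windows in all). The genes with no window were Mcm4, Pole, Prim2, Rfc2, Rnaseh1 and Rnaseh2b. The E2F letters searched were TTTCCCGC, TTTGGCGC, TTTCGCGC and TTTGCCGC on both strands. At least 1 of them was found in 12 of the 35 windows (34.3%), in 2.26% of the windows of all genes and in 3.80% of those of tested genes. By gene, 11 of 29 held them: Lig1, Mcm3, Mcm5, Mcm6, Mcm7, Pola1, Pold1, Pold3, Pole2, Pole4 and Rfc3. The median GC content was 59.7% in the windows of replication genes and 60.3% in those of tested genes. Below are 4 MCM windows with E2F letters, the Pole4 window, which has them while its gene's fold change lay below 0, and the Rfc1 window, which has none although Rfc1 had the smallest p. All are written 5′ to 3′ on the gene's strand, with capitals marking the E2F letters. Only exact matches were counted. Near matches were not marked, such as 1 in the Rfc1 window that differs by 1 base.
Mcm3 (chr1:20820263-20820562, minus strand): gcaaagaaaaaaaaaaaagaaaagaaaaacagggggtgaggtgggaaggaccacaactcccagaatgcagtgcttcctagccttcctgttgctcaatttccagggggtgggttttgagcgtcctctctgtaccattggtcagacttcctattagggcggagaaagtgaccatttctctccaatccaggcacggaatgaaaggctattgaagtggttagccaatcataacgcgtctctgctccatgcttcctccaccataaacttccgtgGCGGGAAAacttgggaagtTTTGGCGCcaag
Mcm5 (chr8:75109259-75109558, plus strand): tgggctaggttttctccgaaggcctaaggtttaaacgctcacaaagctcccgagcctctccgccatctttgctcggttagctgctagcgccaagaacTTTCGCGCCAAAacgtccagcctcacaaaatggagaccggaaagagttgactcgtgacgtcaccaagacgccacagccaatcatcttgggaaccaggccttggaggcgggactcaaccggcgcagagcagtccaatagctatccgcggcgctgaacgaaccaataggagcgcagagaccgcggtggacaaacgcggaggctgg
Mcm6 (chr1:128359656-128359955, minus strand): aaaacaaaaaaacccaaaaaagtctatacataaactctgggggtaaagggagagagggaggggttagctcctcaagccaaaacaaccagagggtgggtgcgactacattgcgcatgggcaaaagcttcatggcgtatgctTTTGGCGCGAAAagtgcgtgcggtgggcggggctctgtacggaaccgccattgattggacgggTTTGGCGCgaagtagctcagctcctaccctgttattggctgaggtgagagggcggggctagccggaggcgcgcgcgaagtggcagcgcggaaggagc
Mcm7 (chr5:138171834-138172133, minus strand): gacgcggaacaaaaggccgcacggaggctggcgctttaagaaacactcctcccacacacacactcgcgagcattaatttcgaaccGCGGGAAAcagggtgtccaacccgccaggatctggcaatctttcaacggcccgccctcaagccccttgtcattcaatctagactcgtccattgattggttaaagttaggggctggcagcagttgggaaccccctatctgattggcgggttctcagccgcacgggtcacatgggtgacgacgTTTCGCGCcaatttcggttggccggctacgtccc
Pole4 (chr6:82652816-82653115, minus strand): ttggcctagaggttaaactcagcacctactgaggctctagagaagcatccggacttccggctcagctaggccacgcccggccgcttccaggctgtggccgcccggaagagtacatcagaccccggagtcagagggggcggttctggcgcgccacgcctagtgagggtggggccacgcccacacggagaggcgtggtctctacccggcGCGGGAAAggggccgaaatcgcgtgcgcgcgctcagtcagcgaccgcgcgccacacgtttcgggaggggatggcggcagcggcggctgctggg
Rfc1 (chr5:65335590-65335889, minus strand): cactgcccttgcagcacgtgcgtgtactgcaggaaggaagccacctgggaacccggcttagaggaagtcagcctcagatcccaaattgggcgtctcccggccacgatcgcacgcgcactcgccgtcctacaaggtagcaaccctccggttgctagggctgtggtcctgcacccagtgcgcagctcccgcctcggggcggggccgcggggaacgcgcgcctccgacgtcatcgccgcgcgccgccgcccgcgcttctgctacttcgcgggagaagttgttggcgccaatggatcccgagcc

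**Figure D2:**
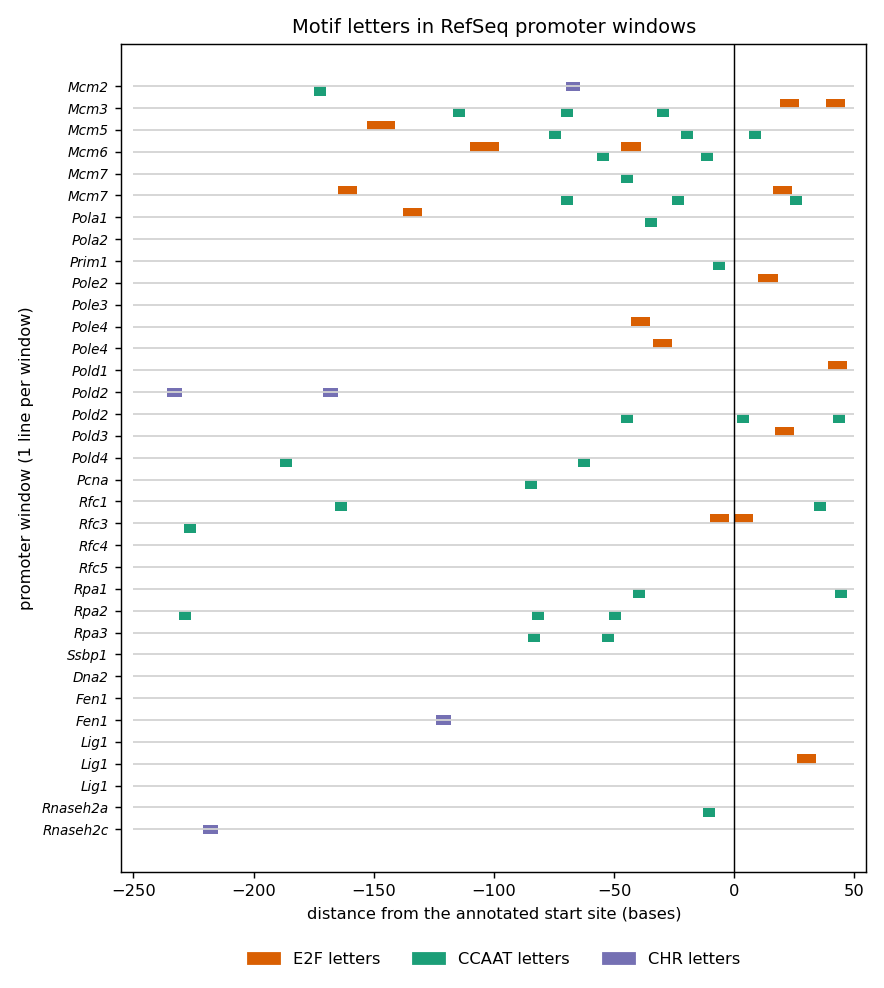
Map of motif letters in the 35 RefSeq windows of 29 replication genes, drawn by distance in bases from the annotated start site (0), with 1 line per window. E2F letters occur in 12 windows, CCAAT in 17 and the CHR letters in 4; a gene with several starts has several lines.

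In Mcm5 the E2F letters of both strands overlap, with matches that begin at positions -153 and -149 from the start site, and Mcm6 has the same arrangement at -110 and -106 and another match at -47. In Mcm3 the matches lie after the start, at 20 and 39, and in Mcm7 they lie at -165 and 17. The 11 genes with E2F letters had a median log2 fold change of 0.57 and a median spread of 2.11-fold between their highest and lowest library. The 18 genes with a window and no such letters had medians of 0.29 and 1.90-fold, and the 6 genes with no window 0.35 and 1.87-fold. The sets overlapped, with spreads of 1.43 to 2.91-fold with the letters and 1.29 to 3.82-fold in the 18 without. Dna2, with the highest fold change, and Rfc1, with the smallest p, are among the 18. The difference between the sets was not tested. These are descriptions of letters in a window, and no binding was measured. Among the E2F and RB genes themselves 0 of 13 passed the edgeR test. At an unadjusted p under 0.05, 4 were higher and 0 lower, against 7.56% and 8.70% of all tested genes. The 4 became 2 without TP-18 1 (3.78% of all tested genes) or TP-18 3 (5.77%). DESeq2 called E2f7 and Rbl2 higher, against 1.47% of all tested genes. E2f7, a repressor of the family that E2F itself induces, had 48.4, 35.1 and 49.8 CPM in TP-18 1, 2 and 3, against 24.1, 20.6 and 21.0 CPM in vehicle 1, 2 and 3. Its groups did not overlap, and its log2 fold change was 1.02 ± 0.18 (SE; edgeR adjusted p = 0.0982).

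In DNA polymerase alpha-primase, which starts each new strand, log2 fold changes ran from 0.21 (Pola2, the regulatory B subunit) to 0.60 (Pola1, the catalytic subunit), with Prim1 at 0.36 and Prim2 at 0.41. Pola1 had the widest spread within a group of all 35 genes, with 69.9, 29.1 and 70.3 CPM in TP-18 1, 2 and 3, against 58.4, 28.8 and 24.6 CPM in vehicle 1, 2 and 3. Vehicle 1 lay near TP-18 1 and TP-18 3, and TP-18 2 lay near vehicle 2 and vehicle 3. Its log2 fold change was 0.60 ± 0.42 (SE; edgeR adjusted p = 0.511). No subunit of this enzyme was past an unadjusted p of 0.05.

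In DNA polymerase epsilon the catalytic subunit Pole had 59.9, 34.1 and 81.3 CPM in TP-18 1, 2 and 3, against 44.3, 29.3 and 29.7 CPM in vehicle 1, 2 and 3. The groups overlapped through TP-18 2 and vehicle 1, and the log2 fold change was 0.76 ± 0.32 (SE; edgeR adjusted p = 0.295). Pole2, which binds the catalytic subunit and has the second lowest level per length (3.50 FPKM), had 11.6, 6.19 and 12.1 CPM in TP-18 1, 2 and 3, against 7.81, 6.796 and 4.17 CPM in vehicle 1, 2 and 3 (log2 fold change 0.67 ± 0.34). The small histone-fold subunits, which also belong to chromatin complexes, were more even. Pole3, at 48.8 FPKM the second highest level per length, had 33.8, 25.6 and 31.2 CPM in TP-18 1, 2 and 3, against 25.9, 30.1 and 29.1 CPM in vehicle 1, 2 and 3. Pole4 had 43.2, 31.0 and 43.4 CPM in TP-18 1, 2 and 3, against 49.3, 46.9 and 41.95 CPM in vehicle 1, 2 and 3, a log2 fold change of -0.23 ± 0.17 (SE; edgeR adjusted p = 0.519) that was -0.06 with library totals as scaling and -0.09 without TP-18 2. Both sets of libraries overlapped in Pole3 and Pole4.

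The ratio of 2 genes does not depend on how libraries are scaled. The ratio of Pole to Pole4 in FPKM was 0.482, 0.382 and 0.651 in TP-18 1, 2 and 3, against 0.312, 0.217 and 0.246 in vehicle 1, 2 and 3. The groups did not overlap, and the log2 difference was 0.95. Of 8 subunit ratios computed, chosen after the values were seen, 1 other separated the groups, that of Pold1 to Pold4 at 0.360, 0.318 and 0.334 in TP-18 1, 2 and 3, against 0.257, 0.204 and 0.218 in vehicle 1, 2 and 3 (log2 difference 0.58). An exact permutation test was run on the ratios, but with 3 against 3 it gives no p under 0.1 and so cannot pass at 0.05. The ratios were also chosen with their values known, and no conclusion is drawn from the test.

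**Figure D3:**
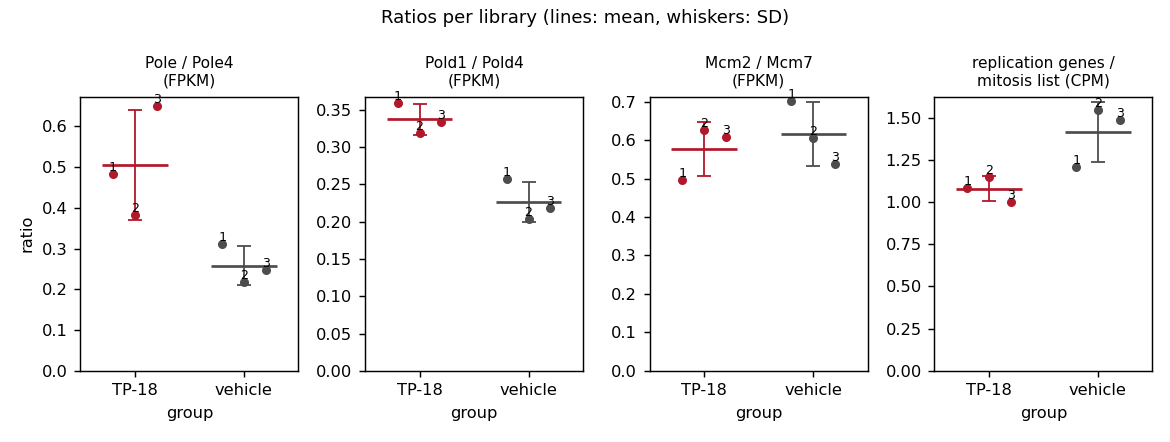
Ratios in each library (points, numbered by library) for the TP-18 and vehicle groups, with group means (lines) and SD (whiskers); the first 3 panels are ratios of FPKM within a complex, the last is summed CPM of the 35 replication genes over that of the 20 mitosis genes. The groups do not overlap for Pole to Pole4, Pold1 to Pold4 and replication to mitosis, and they overlap for Mcm2 to Mcm7.

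DNA polymerase delta had a smaller range of fold changes than polymerase epsilon. Pold1, its catalytic subunit, had a log2 fold change of 0.46 ± 0.20 (SE; edgeR adjusted p = 0.302), with 78.9, 55.5 and 86.0 CPM in TP-18 1, 2 and 3, against 62.3, 51.0 and 46.5 CPM in vehicle 1, 2 and 3. Its groups overlapped because TP-18 2 lay below vehicle 1. Pold2 and Pold3, accessory subunits, had log2 fold changes of 0.09 and 0.14. Pold4, the smallest subunit, had 43.5, 34.5 and 50.9 CPM in TP-18 1, 2 and 3, against 48.0, 49.5 and 42.2 CPM in vehicle 1, 2 and 3, and its log2 fold change of -0.12 ± 0.17 turned to 0.06 with library totals as scaling and to 0.02 without TP-18 2.

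**Figure D4:**
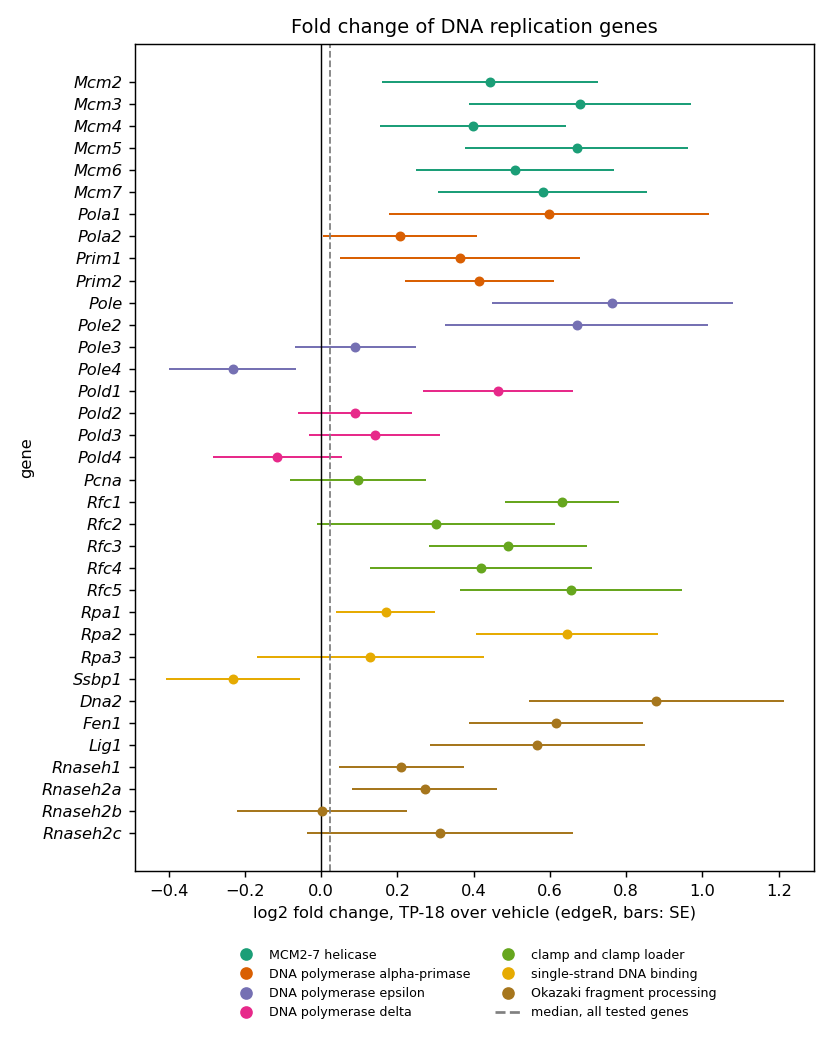
Log2 fold change of TP-18 over vehicle for each replication gene (points, coloured by role) with its SE (bars) from edgeR, n = 3 libraries per group; the dashed line is the median of all tested genes, 0.02. Only Pole4, Ssbp1 and Pold4 lie below 0, and 0 of the 35 genes passed the test.

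In the clamp and its loader the clamp was near level and 1 loader subunit separated the groups. Pcna, the clamp, was by far the most abundant per length at 203 FPKM, next to 48.8 FPKM for Pole3. It had 284, 212 and 293 CPM in TP-18 1, 2 and 3, against 264, 267 and 207 CPM in vehicle 1, 2 and 3. TP-18 2 and vehicle 3 were the low libraries and the groups overlapped, with a log2 fold change of 0.10 ± 0.18 (SE; edgeR adjusted p = 0.817) that was -0.03 without vehicle 3. Rfc1, the largest subunit of the clamp loader, had 104, 87.3 and 107 CPM in TP-18 1, 2 and 3, against 73.6, 61.0 and 58.0 CPM in vehicle 1, 2 and 3. Each TP-18 library lay above each vehicle library, and the log2 fold change was 0.63 ± 0.15 (SE; edgeR adjusted p = 0.155). This was the smallest p of the 35 genes, and the adjusted p ran from 0.0157 with DESeq2 to 0.536 without TP-18 1 over the alternatives. Rfc3 had 38.8, 27.8 and 44.1 CPM in TP-18 1, 2 and 3, against 29.8, 27.0 and 22.03 CPM in vehicle 1, 2 and 3, a log2 fold change of 0.49 ± 0.21. The other small subunits Rfc2, Rfc4 and Rfc5 had log2 fold changes of 0.30, 0.42 and 0.66, and in each of them TP-18 2 lay within the vehicle range.

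Replication protein A, the trimer that coats single-stranded DNA, was uneven too. Rpa2 had 25.1, 17.0 and 31.6 CPM in TP-18 1, 2 and 3, against 17.5, 15.2 and 14.4 CPM in vehicle 1, 2 and 3, a log2 fold change of 0.64 ± 0.24 (SE; edgeR adjusted p = 0.255). TP-18 2 lay just below vehicle 1, so the groups overlapped. Rpa1, the large subunit, spanned only 1.32-fold between its highest and lowest library, with a log2 fold change of 0.17, and Rpa3 had one of 0.13 that was -0.11 without vehicle 3. Ssbp1, which covers single-stranded DNA in mitochondria, had 29.4, 28.3 and 35.2 CPM in TP-18 1, 2 and 3, against 31.4, 43.9 and 33.8 CPM in vehicle 1, 2 and 3. Vehicle 2 was its highest library and TP-18 1 and TP-18 2 its lowest, with a log2 fold change of -0.23 ± 0.18 (SE; edgeR adjusted p = 0.542) that was -0.09 without vehicle 2 and -0.05 with library totals as scaling.

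Among the genes that finish Okazaki fragments, Dna2, a nuclease and helicase that trims long flaps, had the highest fold change and the lowest level of the 35 genes at 1.78 FPKM. It had 12.2, 9.66 and 18.5 CPM in TP-18 1, 2 and 3, against 7.499, 4.84 and 9.59 CPM in vehicle 1, 2 and 3. The groups did not overlap, though TP-18 2 and vehicle 3 were almost level, and the log2 fold change was 0.88 ± 0.33 (SE; edgeR adjusted p = 0.263). Fen1, the flap endonuclease, had 35.5, 24.7 and 44.4 CPM in TP-18 1, 2 and 3, against 25.6, 20.2 and 22.4 CPM in vehicle 1, 2 and 3, a log2 fold change of 0.62 ± 0.23 (SE; edgeR adjusted p = 0.255). TP-18 2 lay below vehicle 1. On GRCm38 in GENCODE M21, 1909 of the 2422 exonic bases of Fen1 are shared with the antisense gene Gm10143, and no source used here says whether strand was used in counting. Lig1, the ligase that seals the fragments, had a log2 fold change of 0.57. Of the RNase H genes, which remove RNA paired with DNA, Rnaseh2b lay at 0.00, Rnaseh1 at 0.21, Rnaseh2a at 0.27 and Rnaseh2c at 0.31, and none was past an unadjusted p of 0.05.

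Other genes share exonic bases with a neighbour as well. Rfc2 shares 952 of 6303 exonic bases with Lat2, Rnaseh2c 426 of 1715 with Kat5, Rfc5 499 of 4669 with Wsb2 and Rfc4 194 of 1533 with Eif4a2, all on the opposite strand. Pold4 shares 286 of 1164 with AC109138.7 on the same strand. Gm10143, which overlaps Fen1, and AC109138.7 have no row in the deposited counts. The lengths behind the FPKM were 1518 bases for Rfc2, 646 for Rnaseh2c, 1730 for Rfc5, 1216 for Rfc4, 919 for Pold4 and 2391 for Fen1. Some shared bases may thus lie outside what was counted. How many counts these overlaps touch was not measured, and the counts of these genes may be uncertain for that reason. All 35 genes are annotated as protein-coding. Rfc1 (Entrez 19687) spans chr5:65261850-65335670, Dna2 (327762) chr10:62947026-62974185, Fen1 (14156) chr19:10199132-10204169 and Pcna (18538) chr2:132249162-132253314.

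Many of the 35 genes serve DNA repair too, by their other KEGG terms. Nucleotide excision repair holds 18 of them, mismatch repair 15, base excision repair 11 and homologous recombination 8, and 20 carry at least 1 of these 4 terms. The 20 had a median log2 fold change of 0.36 and the 15 others one of 0.41. The 7 genes that also carry the term cell cycle, the MCM subunits and Pcna, had a median of 0.51.

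Other genes of replication were taken from lists chosen with earlier results of these data known. Of 10 origin licensing genes, which mark origins before S phase, 0 passed the edgeR test, and the median log2 fold change was 0.10. At an unadjusted p under 0.05, 2 were higher and 0 lower, against 7.56% and 8.70% of all tested genes, and DESeq2 called 0. The list was mixed, with 5 of 10 above 0 and 9 of 10 with library totals as scaling, and its median was 0.16 without vehicle 2 and 0.18 without TP-18 2. Orc5, a subunit of the origin recognition complex, had 16.3, 18.6 and 17.8 CPM in TP-18 1, 2 and 3, against 12.2, 13.0 and 11.2 CPM in vehicle 1, 2 and 3, without overlap (log2 fold change 0.53 ± 0.16, edgeR adjusted p = 0.214). Of 17 genes of origin firing and the fork, 0 passed, 16 lay above 0 and the median was 0.48. At an unadjusted p under 0.05, 6 were higher and 0 lower, against 7.56% and 8.70% of all tested genes. Without TP-18 3 the 6 became 1 (5.77% of all tested genes) and the median 0.29. The count was 2 without vehicle 2 (6.01%) or vehicle 3 (5.24%) and 11 without TP-18 2 (6.77%). DESeq2 called 1 of these genes higher, Ticrr, which helps to start origins, against 1.47% of all tested genes. Ticrr had 19.4, 9.01 and 23.5 CPM in TP-18 1, 2 and 3, against 9.59, 6.23 and 6.55 CPM in vehicle 1, 2 and 3 (log2 fold change 1.21 ± 0.37, edgeR adjusted p = 0.214). In Ticrr TP-18 2 again lay within the vehicle range, whereas Orc5 was highest there.

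In all 20 mitosis genes of another such list TP-18 1 and TP-18 3 were the 2 highest libraries, against 12.2% of all tested genes. TP-18 2 lay within the vehicle range in 17 (47.6% of all tested genes) and above it in 3 (28.4%), and vehicle 3 was lowest in 17 (23.1%). Of 20 mitosis genes 0 passed the edgeR test. At an unadjusted p under 0.05, 12 were higher and 0 lower, against 7.56% and 8.70% of all tested genes. The 12 became 3 without TP-18 3 (5.77% of all tested genes), 4 without vehicle 3 (5.24%) or TP-18 1 (3.78%), 5 without vehicle 2 (6.01%) and 17 without TP-18 2 (6.77%). DESeq2 called Cenpf and Kif11 higher, against 1.47% of all tested genes. All 20 lay above 0 under every setting run, with a median log2 fold change of 0.66. Mki67, a marker of cycling cells, had 447, 246 and 528 CPM in TP-18 1, 2 and 3, against 331, 127 and 232 CPM in vehicle 1, 2 and 3, so that TP-18 2 lay below vehicle 1 (log2 fold change 0.82 ± 0.39, edgeR adjusted p = 0.339). Cenpf, a kinetochore protein, had 151, 110.4 and 169 CPM in TP-18 1, 2 and 3, against 87.3, 59.3 and 81.8 CPM in vehicle 1, 2 and 3, without overlap (log2 fold change 0.91 ± 0.21, edgeR adjusted p = 0.152). The summed level of the replication genes over that of the mitosis genes was 1.08, 1.15 and 1.00 in TP-18 1, 2 and 3, against 1.21, 1.55 and 1.48 in vehicle 1, 2 and 3. Every TP-18 library had the lower ratio (log2 difference -0.39). For the 6 MCM subunits over the mitosis genes the ratio was 0.371, 0.325 and 0.3475 in TP-18 1, 2 and 3, against 0.3754, 0.4283 and 0.4171 in vehicle 1, 2 and 3. There TP-18 1 and vehicle 1 were almost level (log2 difference -0.23). Both ratios are descriptions chosen after the values were seen, and no conclusion is drawn from them.

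**Figure D5:**
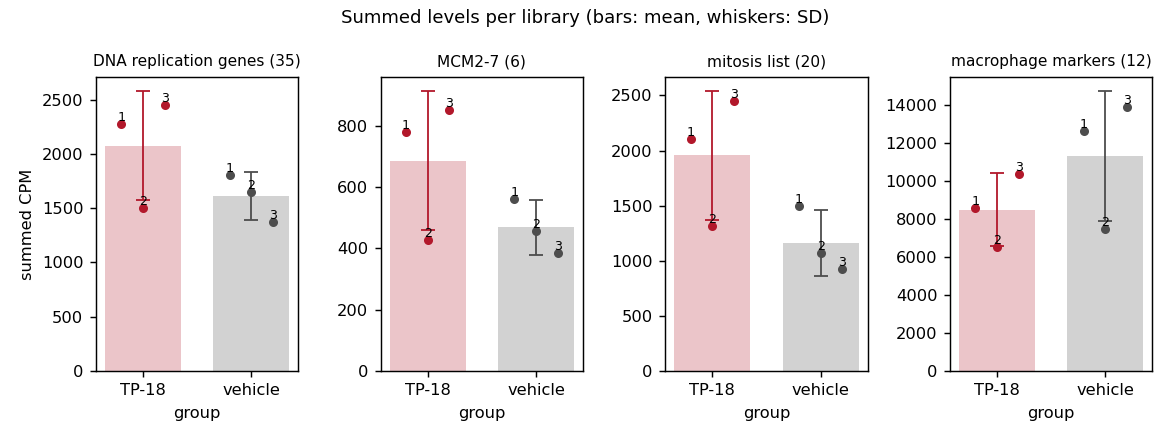
Summed CPM per library (points, numbered by library) for the 35 replication genes, the 6 MCM subunits, 20 mitosis genes and 12 macrophage markers in TP-18 and vehicle libraries, with group means (bars) and SD (whiskers). TP-18 1 and TP-18 3 stand above the other libraries for replication and mitosis, while the macrophage sum is highest in vehicle 3 and vehicle 1.

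Markers of other cells moved with the libraries in part. The 12 macrophage markers summed to 8595, 6536 and 10380 CPM in TP-18 1, 2 and 3, against 12650, 7459 and 13910 CPM in vehicle 1, 2 and 3, and 3 of 12 had log2 fold changes above 0 (at most 8 of 12 under other settings). With edgeR 0 of the 12 passed. At an unadjusted p under 0.05, 0 were higher and 2 lower, against 7.56% and 8.70% of all tested genes. The 2 lower were Cd14 (log2 fold change -1.07, edgeR adjusted p = 0.0972) and Cd68 (-0.48, edgeR adjusted p = 0.255). Both were lower without overlap, against 11.7% of all tested genes. Cd14 had 683, 640 and 822 CPM in TP-18 1, 2 and 3, against 1575, 1725 and 1211 CPM in vehicle 1, 2 and 3. DESeq2 called 1 of the 12, lower, where it called 1.47% of all tested genes higher and 2.98% lower. The lowest macrophage sums were in TP-18 2 and vehicle 2. The 8 fibroblast and pericyte markers summed to 1487 to 1846 CPM in TP-18 and 742 to 1200 CPM in vehicle libraries, with all 8 above 0 and 0 past the edgeR test. At an unadjusted p under 0.05, 7 were higher (7.56% of all tested genes) and 0 lower (8.70%), and DESeq2 called 4 higher (1.47%). The 6 endothelial markers summed to 166, 156 and 97.2 CPM in TP-18 1, 2 and 3, against 31.8, 159 and 56.0 CPM in vehicle 1, 2 and 3, with all 6 above 0 and 0 past the edgeR test. At an unadjusted p under 0.05, 1 was higher (7.56% of all tested genes) and 0 lower (8.70%), and DESeq2 called 1 higher (1.47%). The neutrophil markers summed to 48.3, 97.4 and 59.4 CPM in TP-18 1, 2 and 3, against 51.9, 125.5 and 64.9 CPM in vehicle 1, 2 and 3. The 4 B cell markers summed to 6.42, 2.44 and 8.30 CPM in TP-18 1, 2 and 3, against 3.93, 1.196 and 1.46 CPM in vehicle 1, 2 and 3, with TP-18 1 and TP-18 3 highest as in the replication genes. The T and NK cell markers summed to 3.31 to 14.7 CPM in TP-18 and 2.58 to 16.4 CPM in vehicle libraries. The sum of the carcinoma markers was nearly all Krt20. It was 506, 512.5 and 247 CPM in TP-18 1, 2 and 3, against 454, 531.5 and 344 CPM in vehicle 1, 2 and 3. The part of these cell types in the replication levels was not tested, and in bulk libraries more dividing cells and more RNA per cell cannot be told apart.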

How the data were processed

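Raw gene counts (17191 genes, 6 libraries) and FPKM were deposited by the authors. The submitters' processing notes name HISAT2, HTSeq, fastp and the build GRCm38; versions, annotation release and strand setting are not given in the sources used. The authors' FPKM equals count divided by the library total and by 1 length per gene, checked on 17191 genes (tolerance 0.000001), so it lacks TMM scaling. FPKM was used to compare levels between genes, for ratios and in the alternative settings on FPKM. The test was that of edgeR 4.0.16 under R 4.3.3 (filterByExpr, minimum count 10 and total 15; TMM; quasi-likelihood test without covariates; Benjamini-Hochberg adjustment over 12721 genes, threshold 0.05). SE is the absolute log2 fold change over the square root of F. The test was first tested on simulated data. Alternatives were RLE factors, library totals, DESeq2 1.42.0 (same genes), a replicate block, other filters, each library left out, and limma 3.58.1 with voom or on log2(FPKM + c) with c of 1 or 0.1. TMM factors were 1.06 to 1.07 in TP-18 and 0.924 to 0.962 in vehicle libraries. Replicate counts of a group differed by more than sampling noise (27.8 to 81.4 chi-square per gene), so none was treated as a copy.

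Values of every library were given for genes past the threshold (none), the 6 with the smallest p above 0, the 3 below 0, the 2 highest and 2 lowest in FPKM, the 2 widest within a group, Pcna and Mcm2; of each list the gene with the smallest p. Other genes were chosen after their values were seen. The genes and lists were chosen with earlier results of these data known. Motif letters were searched on both strands of RefSeq windows, and gene positions and exon overlaps came from GENCODE M21. Figures were drawn with matplotlib 3.10.9.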

Additional observations from a re-analysis of the deposited data

How the results depend on the processing

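No replication gene was called lower under any setting run, and DESeq2, which called 1 higher (Rfc1), was the only setting with a call among them. With DESeq2 7 of the 93 genes of the other replication, E2F and mitosis lists were called, against 0 with edgeR. Of all tested genes DESeq2 called 1.47% higher and 2.98% lower, and edgeR 0.0236% higher and 0.0865% lower. Genes called in the whole table, 14 with edgeR, numbered 4 with library totals as scaling, 566 with DESeq2, 2 with limma on log2(FPKM + 1) and 2 on log2(FPKM + 0.1), 27 without a filter on low counts and 3 with a replicate block; with each library left out they ranged from 0 to 8. Replication genes with groups that do not overlap, 2 higher and 0 lower, numbered 9 higher with library totals and on either FPKM scale (23.5% of all tested genes, against 11.6% with TMM); with each library left out they ranged from 2 to 27 higher and from 0 to 1 lower. Their median log2 fold change, 0.41, ranged from 0.26 to 0.61 with a library left out and was 0.40 with the replicate block, under which 0 were called; the distance from the median of all genes was 0.39 with TMM, RLE factors and library totals alike. All 35 genes also have a summed count of at least 600, so the other minimums gave the same counts. The sign turned for 4 genes near 0. Rnaseh2b, at 0.0028, was -0.0083 with RLE factors, -0.0084 with DESeq2, -0.031 with voom and -0.0266 with the replicate block, and ranged from -0.1431 to 0.1935 with a library left out (below 0 without vehicle 3, TP-18 1 or TP-18 3). Pold4 was 0.0615 with library totals, 0.047 and 0.0476 on the FPKM scales, and ranged from -0.2563 to 0.0200 with a library left out. Pcna ranged from -0.0268 (without vehicle 3) to 0.2299 and Rpa3 from -0.111 (without vehicle 3) to 0.3475; without TP-18 1 Rpa3 was -0.0017. The cause was not tested. The replicate numbers were not shown to pair the libraries: deviations from group means correlated at 0.161, 0.39 and -0.152 between libraries of the same number, and TP-18 3 correlated best with vehicle 1 (0.496). Within a group, the median over the 35 genes of centred log2 CPM had an SD of 0.331 between libraries, against the median log2 fold change of 0.41.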

Other observations

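Genes that supply deoxynucleotides and copy chromatin also lay mostly above 0, and 0 passed the edgeR test. All 10 deoxynucleotide supply genes had log2 fold changes above 0 (8 of 10 at least under other settings), with a median of 0.39 that was 0.23 without vehicle 3, 0.24 without TP-18 3 and 0.64 without TP-18 2. Rrm2, the regulated subunit of ribonucleotide reductase, had 88.0, 46.4 and 108 CPM in TP-18 1, 2 and 3, against 61.5, 44.8 and 32.0 CPM in vehicle 1, 2 and 3 (log2 fold change 0.81 ± 0.34, edgeR adjusted p = 0.301). The groups overlapped through TP-18 2. Of 10 chromatin copying genes 9 lay above 0, with a median of 0.57 that was 0.38 without TP-18 3 and 0.78 without TP-18 2. Asf1a lay below 0, at -0.32, and its TP-18 libraries all lay below its vehicle libraries (11.7% of all tested genes). Chaf1a, the large subunit of the histone chaperone CAF-1, had 71.4, 47.2 and 78.2 CPM in TP-18 1, 2 and 3, against 43.2, 36.1 and 26.3 CPM in vehicle 1, 2 and 3 (log2 fold change 0.90 ± 0.24, edgeR adjusted p = 0.194). Its groups did not overlap (11.6% of all tested genes were higher without overlap), and DESeq2 called it (1.47% of all tested genes were called higher).

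Translesion polymerases, which copy damaged DNA, had a median of 0.06 over 9 genes, with 6 above 0 and 4 to 9 under other settings; the median was 0.00 without TP-18 2 or vehicle 1 and 0.21 without vehicle 3. Polq, the end-joining polymerase theta, had 13.7, 12.8 and 19.7 CPM in TP-18 1, 2 and 3, against 9.16, 6.17 and 5.89 CPM in vehicle 1, 2 and 3 (log2 fold change 1.12 ± 0.27, edgeR adjusted p = 0.156). Its groups did not overlap either (11.6% of all tested genes), and DESeq2 called it (1.47%). The 4 alternative clamp loader genes tested had a median of 0.43 (0.26 without TP-18 3, 0.67 without TP-18 2), and Chtf18, the one with the smallest p, had 24.6, 12.8 and 31.5 CPM in TP-18 1, 2 and 3, against 18.6, 11.9 and 9.46 CPM in vehicle 1, 2 and 3 (edgeR adjusted p = 0.343).

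In the promoter windows, the letters CCAAT were found in 17 of 35 windows of replication genes (48.6%), 37.4% of the windows of all genes and 37.7% of those of tested genes. The CHR letters TTTGAA, a motif known from mitotic genes, were found in 4 of 35 windows (11.4%), in 17.9% of all windows and in 12.3% of those of tested genes.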
